A study of Homo sapiens with 4 samples.

Results

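The inter-alpha-trypsin inhibitors and secreted plasma carriers described here are 10 genes out of 24462 in the count tables. They comprise 4 genes of the heavy chain family (ITIH1, ITIH2, ITIH3 and ITIH4), the light chain of the inhibitor (AMBP), 3 carriers (HPX, RBP4 and GC) and 2 inhibitors of other kinds (AHSG and A2M). ITIH4 is a homologue that circulates without the light chain and is counted here with the family. The genes were chosen by symbol with the rise of ITIH1 and HPX in CDK4/6 KD against scrambled siRNA already known, so that every value of that comparison is given as a description and supports nothing about the choice. The comparison of PD0332991 with DMSO shares no library with it and was not used for the choice. No symbol of the 10 was listed more than once, and the rule had no threshold.

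Gene expression was measured in HepG2, an established human cell line from a hepatocellular carcinoma, to find out what changes when the cell cycle kinases CDK4 and CDK6 are inhibited or depleted. The 4 libraries, 1 per condition, came from cells given DMSO (the solvent), cells given PD0332991 (palbociclib, a CDK4/6 kinase inhibitor), cells transfected with scrambled siRNA and cells transfected with siRNA against CDK4 and CDK6 (CDK4/6 KD). All cells were of the same unmodified line in RPMI medium with serum and antibiotics, and how much PD0332991 was given, for how long, and when transfected cells were harvested are not given in the sources used here for these libraries. Libraries were made with QuantSeq, which reads the 3′ end of polyadenylated RNA, so that read numbers do not scale with transcript length and levels of different genes can be set side by side without a length correction. The deposited values are reads per gene symbol, and levels are given as reads and as CPM, which are reads scaled to a common library size with TMM factors. With 1 library per condition there was no replicate check and no test, the 95% intervals on a fold change cover counting error of the reads only, and reads carry no molecular identifiers. In bulk RNA, a change in the number of cells that express a gene and a change in RNA per cell cannot be told apart.

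The libraries held 8983848 to 11176880 reads. CDK4 (fold change: 0.203) and CDK6 (fold change: 0.241) were lower in CDK4/6 KD than in its control. All 8 hepatocyte markers were counted in every library, with a summed level of 14320 to 18267 CPM. Of 4 endothelial markers, 3 stayed at or under 3 reads in all libraries, CDH5 and KDR were at 0, and the sum was 0.353 to 0.467 CPM. The sum of 4 leukocyte markers was 7.69 to 15.5 CPM with CD3E at 0, that of 4 fibroblast and stellate markers was 40.8 in DMSO, 61.7 in PD0332991, 7.01 with scrambled siRNA and 19.5 CPM with CDK4/6 KD, and that of 5 keratinocyte markers was 68.5, 134, 55.7 and 100.1 CPM in the same order. COL1A1, the main collagen of fibroblasts, had 332 reads in DMSO, 468 with PD0332991, 73 with scrambled siRNA and 207 with CDK4/6 KD. KRT14, a keratin of basal squamous cells, had 9, 249, 31 and 74 reads in the same order. COL1A1 and KRT14 were thus higher in both treated libraries than in their controls, and their part in the results was not tested. The keratinocyte markers did not all follow KRT14. KRT6A had 9, 150, 37 and 28 reads in the same order, with a fold change of 0.719 in CDK4/6 KD (interval 0.422 to 1.20). KRT10, with 606, 701, 514 and 986 reads, held much of the keratinocyte sum.

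Inter-alpha-trypsin inhibitors are made by hepatocytes and released into plasma. The light chain bikunin, a protease inhibitor cut from the AMBP precursor, carries a chondroitin sulfate chain to which heavy chains are joined by an ester bond, and the heavy chains can later be passed on to hyaluronan in the matrix. The carriers of this group are also hepatocyte products: hemopexin (HPX) binds free heme, RBP4 takes retinol from the liver to other tissues, GC binds vitamin D and its metabolites, fetuin-A (AHSG) keeps calcium phosphate from precipitating, and alpha-2-macroglobulin (A2M) traps proteases of many classes.

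The heavy chains were compared first by the site at which they are joined to the light chain. In the precursor the sequence Asp-Pro-His-Phe marks this site. The chain is cut after the aspartate, which then forms the bond to chondroitin sulfate. The coding sequence around it was read from GENCODE 29 transcripts (GRCh38, plus strand for all 3 genes), with the 4 codons of the site in capitals. In each gene the stretch is split over 2 exons, so that the coordinates below include an intron.
ITIH1 (chr3:52788066-52788260, exons 17 and 18): gtggacacaGACCCTCACTTCatcatccac
ITIH2 (chr10:7738758-7743174, exons 16 and 17): gttgaaaatGACCCACATTTCatcatttat
ITIH3 (chr3:52806138-52806321, exons 17 and 18): gtggacgggGATCCCCACTTCatcatccaa
The site began at residue 672 of 911 in ITIH1, at residue 702 of 946 in ITIH2 and at residue 651 of 890 in ITIH3, which leaves 239, 244 and 239 residues after the aspartate. ITIH4, with 935 residues, did not hold the motif. ITIH4 is known as a heavy chain homologue that circulates without bikunin. The related genes ITIH5 and ITIH6 did hold the motif.

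ITIH1 (ENSG00000055957, chr3:52777592-52792068, plus strand), ITIH3 (ENSG00000162267, chr3:52794768-52809009, plus strand) and ITIH4 (ENSG00000055955, chr3:52812975-52831479, minus strand) lie side by side in GENCODE 29, with 2.7 kb between ITIH1 and ITIH3 and 3.97 kb between ITIH3 and ITIH4. The other genes are dispersed: ITIH2 at chr10:7703269-7749520 on the plus strand, AMBP at chr9:114060127-114078472, HPX at chr11:6431049-6442617, RBP4 at chr10:93591687-93601744, GC at chr4:71741693-71804041 and A2M at chr12:9067664-9116229 on the minus strand, and AHSG at chr3:186612923-186621318 on the plus strand. The submitters' processing notes name hg19, and the count tables hold symbols without coordinates, so these positions are those of GRCh38.

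In every library, AHSG was by far the most counted of the 10 genes. It had 18627 reads in DMSO, 25732 with PD0332991, 24198 with scrambled siRNA and 29627 with CDK4/6 KD (2039, 2826, 2261 and 2617 CPM), which placed it between rank 21 and rank 36 of all genes. AMBP, ITIH2, RBP4 and A2M formed a middle tier of 255 to 943 CPM. ITIH3 and HPX lay between 7.94 and 69.9 CPM, and ITIH1 and ITIH4 at 13.2 CPM or less. GC had 3 reads in DMSO and 0 in the other 3 libraries. Up to 3 reads were taken as the floor, so vitamin D-binding protein RNA was not detectable at this depth and no fold change was computed for GC. Together the 10 genes took 0.394% of the reads in DMSO, 0.539% with PD0332991, 0.358% with scrambled siRNA and 0.517% with CDK4/6 KD, of which AHSG alone was 51.9% to 60.5%.

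**Figure D1:**
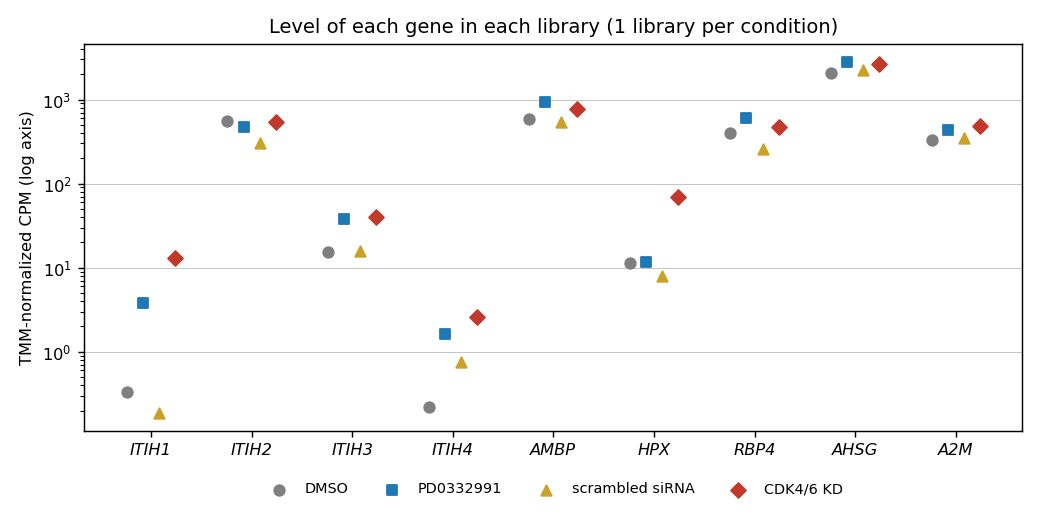
Level of 9 genes in each of the 4 libraries, in TMM-normalized CPM on a log axis, with 1 point per library. ITIH1 lies at 0.328 CPM in DMSO and 0.187 in scrambled siRNA against 13.2 in CDK4/6 KD, HPX stands out in CDK4/6 KD alone at 69.9 CPM, and AHSG stays between 2039 and 2826 CPM. GC is not drawn because it was at or under 3 reads in every library.

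ITIH1, which encodes heavy chain 1, was nearly absent from both control libraries. It had 3 reads in DMSO, 35 with PD0332991, 2 with scrambled siRNA and 149 with CDK4/6 KD (0.328, 3.84, 0.187 and 13.2 CPM). The controls were thus at the floor and both treated libraries were above it, with CDK4/6 KD the higher of the 2. The ratio of CDK4/6 KD to scrambled siRNA was 70.4 with a counting interval of 19.2 to 587, and that of PD0332991 to DMSO was 11.7 with an interval of 3.69 to 59.5. The width of both intervals comes from the 2 and 3 control reads. By fold change with a pseudocount of 0.5 reads, ITIH1 ranked 2 of 13617 genes in CDK4/6 KD and 58 of 13443 after PD0332991. Between scrambled siRNA and DMSO no fold change was computed, both being at the floor.

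ITIH2, which encodes heavy chain 2, was the main heavy chain in every library. It had 5019 reads in DMSO, 4266 with PD0332991, 3295 with scrambled siRNA and 6119 with CDK4/6 KD (549, 469, 308 and 541 CPM). Scrambled siRNA was the low library, and DMSO and CDK4/6 KD lay close together. ITIH2 was higher in CDK4/6 KD than in its control (fold change: 1.76, 95% interval 1.68 to 1.83) and lower in PD0332991 than in DMSO (fold change: 0.853, interval 0.819 to 0.889). The control libraries themselves differed (scrambled siRNA over DMSO: 0.561, interval 0.536 to 0.586), and against DMSO the fold change in CDK4/6 KD was 0.984 with an interval of 0.948 to 1.02. The higher level of ITIH2 in CDK4/6 KD was therefore seen against scrambled siRNA and not against DMSO.

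ITIH3, which encodes heavy chain 3, had 142 reads in DMSO, 343 with PD0332991, 171 with scrambled siRNA and 452 with CDK4/6 KD (15.5, 37.7, 16 and 39.9 CPM). The controls were level with each other (scrambled siRNA over DMSO: 1.03, interval 0.818 to 1.29), and both treated libraries were more than 2-fold above them. The fold change was 2.49 in CDK4/6 KD against scrambled siRNA (interval 2.09 to 3.0) and 2.42 in PD0332991 against DMSO (interval 1.99 to 2.97). With the controls exchanged the values were 2.56 and 2.35, so that the fold change of ITIH3 lay between 2.35 and 2.56 for either treatment against either control. ITIH4, whose product is also cleaved in plasma by kallikrein, had 2, 15, 8 and 29 reads in the same order of libraries (0.219, 1.65, 0.748 and 2.56 CPM). Its fold change in CDK4/6 KD was 3.28 (interval 1.53 to 8.67), and its ratio of PD0332991 to DMSO was 7.53 (interval 1.75 to 67.8), from 2 control reads. Both depended on the control: the ratio of CDK4/6 KD to DMSO was 11.7 (interval 2.96 to 101), and the fold change of PD0332991 to scrambled siRNA was 2.13 with an interval of 0.877 to 6.0 that includes 1. A gene on the same strand that overlaps the 3′ end of ITIH4 in GENCODE 29 (AC006254.1) was not in the count tables.

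The make-up of the heavy chain family RNA (ITIH1 to ITIH4) differed between libraries. ITIH2 gave 97.2% of all ITIH1 to ITIH4 reads in DMSO, 91.6% with PD0332991, 94.8% with scrambled siRNA and 90.7% with CDK4/6 KD. The share of ITIH1 was 0.0581% in DMSO, 0.751% with PD0332991, 0.0575% with scrambled siRNA and 2.21% with CDK4/6 KD, and the exact binomial (Clopper-Pearson) interval of 1.87% to 2.59% in CDK4/6 KD lay above that of 0.524% to 1.04% in PD0332991. ITIH3 took 2.75%, 7.36%, 4.92% and 6.70% in the same order. ITIH1 and ITIH3 thus held a larger share in both treated libraries than in their controls, beyond counting error. Even so, ITIH2 remained above 90% of ITIH1 to ITIH4 reads throughout.

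**Figure D2:**
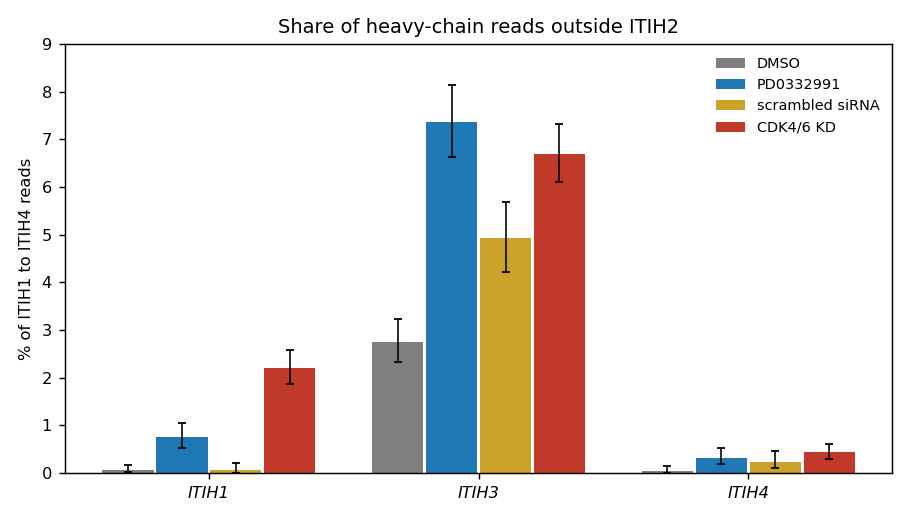
Share of ITIH1, ITIH3 and ITIH4 in all ITIH1 to ITIH4 reads of each library, in percent, with exact binomial 95% intervals as bars that cover counting error only. ITIH1 reaches 2.21% in CDK4/6 KD and 0.751% in PD0332991, and ITIH3 is lowest in DMSO at 2.75%. ITIH2, which holds the rest, is not drawn.

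AMBP, the precursor of bikunin and of the lipocalin alpha-1-microglobulin, had 5354 reads in DMSO, 8585 with PD0332991, 5753 with scrambled siRNA and 8811 with CDK4/6 KD (586, 943, 538 and 778 CPM). The controls lay close together (scrambled siRNA over DMSO: 0.918, interval 0.884 to 0.953) and below both treated libraries. The fold change was 1.45 in CDK4/6 KD (interval 1.4 to 1.5) and 1.61 after PD0332991 (interval 1.55 to 1.67). Because AMBP was higher in PD0332991 while ITIH2 was lower, the ratio of the heavy chains that can join bikunin (ITIH1, ITIH2 and ITIH3) to AMBP was lower in PD0332991 (0.541 reads per AMBP read, interval 0.522 to 0.561) than in DMSO (0.965, interval 0.928 to 1.00). It was higher in CDK4/6 KD (0.763, interval 0.739 to 0.787) than with scrambled siRNA (0.603, interval 0.578 to 0.629). The DMSO library had the highest ratio of the 4, and the values are ratios of RNA reads, not of protein.

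HPX, the heme carrier, had 103 reads in DMSO, 106 with PD0332991, 85 with scrambled siRNA and 791 with CDK4/6 KD (11.3, 11.6, 7.94 and 69.9 CPM). CDK4/6 KD stood alone, and the other 3 libraries lay within a narrow range. Its fold change in CDK4/6 KD was 8.75 against scrambled siRNA (interval 7.03 to 11.1), rank 108 of 13617 genes, and 6.18 against DMSO (interval 5.04 to 7.69). After PD0332991 the fold change was 1.03 against DMSO with an interval of 0.780 to 1.37, and 1.46 against scrambled siRNA with an interval of 1.09 to 1.97. Against its own control HPX thus differed from ITIH1 and ITIH3, which were higher in both treated libraries; no test of the difference between treatments could be made. HP (haptoglobin), which binds free hemoglobin as HPX binds heme, had 2293, 2034, 850 and 2830 reads in the same order of libraries. Reads of HP cannot be told apart with certainty from those of its near-identical copy HPR. The number of HPX reads per HP read was 0.0449, 0.0521, 0.10 and 0.280 in the same order, highest in CDK4/6 KD.

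RBP4, the retinol carrier, had 3681 reads in DMSO, 5420 with PD0332991, 2732 with scrambled siRNA and 5350 with CDK4/6 KD (403, 595, 255 and 473 CPM). As for ITIH2, scrambled siRNA was the lowest library (scrambled siRNA over DMSO: 0.634, interval 0.603 to 0.666). The fold change was 1.85 in CDK4/6 KD against scrambled siRNA (interval 1.77 to 1.94) but 1.17 against DMSO (interval 1.12 to 1.22). After PD0332991 it was 1.48 against DMSO (interval 1.42 to 1.54) and 2.33 against scrambled siRNA. TTR, the thyroxine carrier with which RBP4 travels in plasma, had 1380, 2117, 3068 and 4095 reads in the same order of libraries. The number of RBP4 reads per TTR read was therefore 2.67 in DMSO and 2.56 in PD0332991, but 0.890 with scrambled siRNA and 1.31 with CDK4/6 KD. This ratio separated the transfected cells from the cells given DMSO or PD0332991 more than it separated treated cells from their controls. FFAR4, which overlaps the 3′ end of RBP4 on the opposite strand, had at most 3 reads in any library.

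AHSG varied least of the genes above the floor, from 2039 to 2826 CPM. Its fold change was 1.16 in CDK4/6 KD (interval 1.14 to 1.18), 1.39 after PD0332991 (interval 1.36 to 1.41) and 1.11 between scrambled siRNA and DMSO (interval 1.09 to 1.13). The difference in CDK4/6 KD was thus of about the size of that between the control libraries. Relative to ALB (albumin, the most abundant plasma carrier), AHSG gave 0.614 reads per ALB read in DMSO, 0.927 with PD0332991, 0.879 with scrambled siRNA and 0.507 with CDK4/6 KD, and the low value in CDK4/6 KD went with 58465 ALB reads there against 27539 in scrambled siRNA.

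A2M had 2990 reads in DMSO, 3955 with PD0332991, 3734 with scrambled siRNA and 5531 with CDK4/6 KD (327, 434, 349 and 489 CPM). Both treated libraries were above their controls, with fold changes of 1.4 in CDK4/6 KD (interval 1.34 to 1.46) and 1.33 after PD0332991 (interval 1.27 to 1.39), against 1.07 between the controls (interval 1.02 to 1.12). The antisense gene A2M-AS1, which reaches the 3′ end of A2M from the opposite strand, was listed with 2589, 3554, 3331 and 4875 reads, close to the A2M values in every library. The strand setting of the counting is not given in the sources used here, so reads of A2M and A2M-AS1 cannot be told apart. A2M also has 1 pseudogene named after it in GENCODE 29.

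Over the group, 9 of the 10 genes reached 10 reads in CDK4/6 KD or its control, and 4 of them (ITIH1, ITIH3, ITIH4 and HPX) were higher by 2-fold or more and 0 lower by as much. Of all 13617 genes that reached 10 reads, 9.19% were higher and 7.62% lower by that measure, and since this comparison was used for the choice, nothing is read from the difference. The interval lay above 1 for all 9, as it did for 4082 of all 13617 genes. The median of the 9 genes on the log2 scale was 0.89, against -0.0036 for all genes, and 0.81 without ITIH1 and HPX. After PD0332991, 3 of 9 genes (ITIH1, ITIH3 and ITIH4) were higher by 2-fold or more and 0 lower, where 7.49% and 7.07% of 13443 genes were. The interval lay above 1 for 7 genes, below 1 for ITIH2 and included 1 for HPX. Of all 13443 genes, it lay above 1 for 3783 and below 1 for 3842. Counting intervals narrow as reads increase, so for a deeply counted gene a small fold change is enough. The median log2 fold change was 0.56 against 0.018 for all genes. ITIH1 and ITIH4 passed the filter only through the library in which they were higher, and of the 3 genes ITIH3 alone had more than 3 reads in DMSO.

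**Figure D3:**
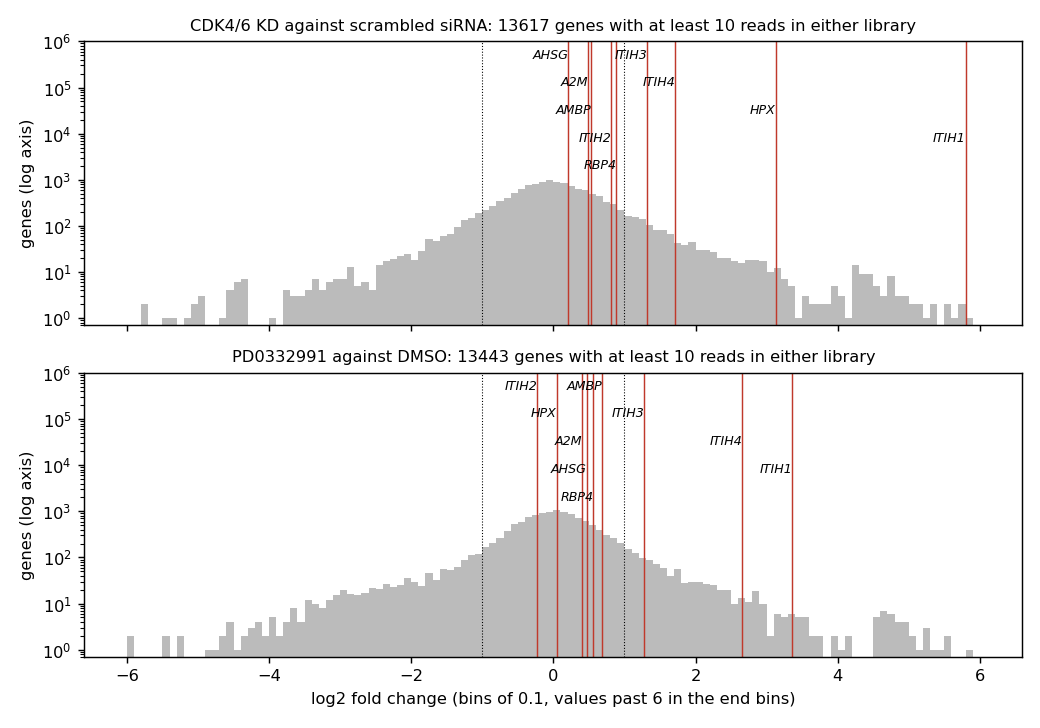
Histograms of the log2 fold change of all genes that reached 10 reads in the pair of libraries (number of genes per bin on a log axis), with red lines at 9 of the genes described and dotted lines at a 2-fold difference. In CDK4/6 KD the lines run from AHSG at 0.21 to ITIH1 at 5.80, and after PD0332991 from ITIH2 at -0.23 to ITIH1 at 3.36.

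The 2 control libraries differed from each other at these genes. Of the 7 that reached 10 reads, 0 were 2-fold apart, against 5.3% of 13303 genes higher and 6.64% lower in scrambled siRNA than in DMSO. The interval lay below 1 for 4 genes (ITIH2, RBP4, HPX and AMBP), above 1 for AHSG and A2M, and included 1 for ITIH3. Of all 13303 genes, it lay below 1 for 3727 and above 1 for 3767. HPX, for which scrambled siRNA was the lower control, had a fold change of 0.706 (interval 0.522 to 0.948). The median log2 fold change was -0.12 against 0.0088 for all genes. CDK4/6 KD against scrambled siRNA and scrambled siRNA against DMSO share the scrambled siRNA library, so a low value there makes the former higher and the latter lower. PD0332991 against DMSO and scrambled siRNA against DMSO share the DMSO library in the same way. With the controls exchanged, 4 of 9 genes (ITIH1, ITIH3, ITIH4 and HPX) were at least 2-fold higher in CDK4/6 KD than in DMSO, where 8.04% of 13512 genes were higher and 8.16% lower. In PD0332991 against scrambled siRNA, 4 of 9 (ITIH1, ITIH3, ITIH4 and RBP4) were, where 10.7% of 13552 genes were higher and 8.17% lower. The ratio of ITIH1 was then 40.1 in CDK4/6 KD (interval 13.5 to 197) and 20.6 in PD0332991. Both comparisons with exchanged controls share a library with the one used for the choice, so nothing is read from their counts beside the percentages. In both, ITIH1 and ITIH4 passed the filter only through the library in which they were higher.

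**Figure D4:**
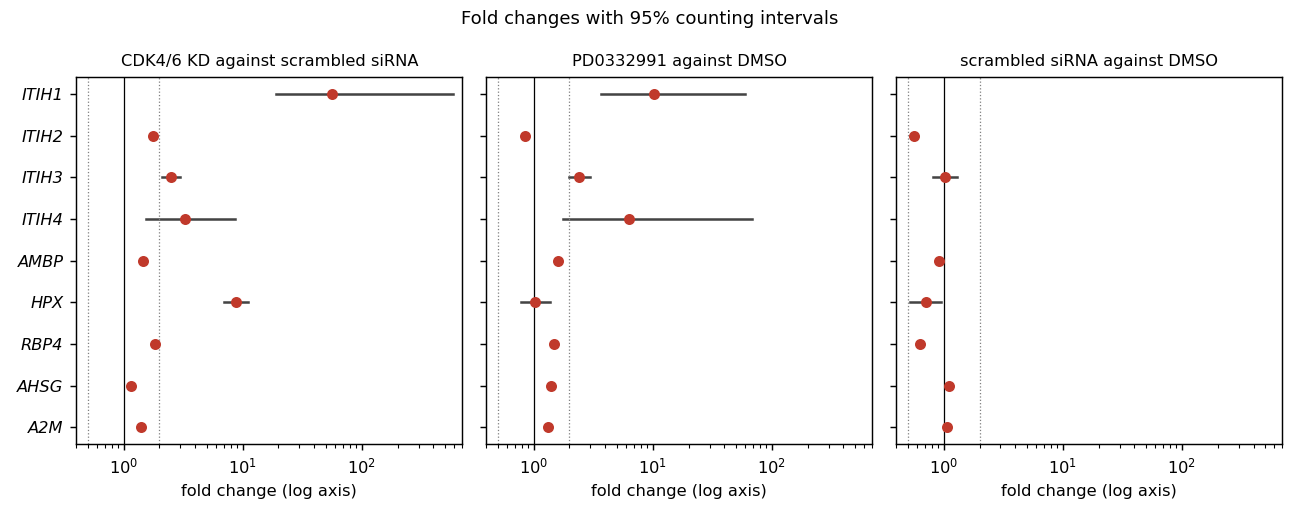
Fold changes with 95% counting intervals on a log axis for the 2 treatments against their own controls and for the control libraries against each other, with a solid line at 1 and dotted lines at a 2-fold difference. Points hold a pseudocount of 0.5 reads and are drawn only where 1 of the libraries reached 10 reads, so ITIH1 and ITIH4 are missing from the panel of the controls. ITIH3 sits at 2.49 and 2.42 in the 2 treatments, and ITIH2 lies below 1 after PD0332991 and between the controls.

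The genes around the heavy chain cluster on chromosome 3 did not all follow it. SPCS1, a signal peptidase subunit, had 550, 509, 557 and 811 reads in DMSO, PD0332991, scrambled siRNA and CDK4/6 KD (fold change in CDK4/6 KD: 1.38, interval 1.23 to 1.54, and after PD0332991: 0.929). NEK4, a protein kinase gene 6.64 kb from ITIH1, had 96, 61, 96 and 104 reads, with a fold change of 1.02 in CDK4/6 KD and 0.639 after PD0332991. MUSTN1, on the other side, had 8, 28, 17 and 15 reads, with a fold change of 0.839 in CDK4/6 KD (interval 0.388 to 1.78) and 3.38 after PD0332991 (interval 1.56 to 8.92). On chromosome 10, ITIH5 lies 36.3 kb from ITIH2 and had 187, 141, 91 and 193 reads. Its fold changes of 1.999 in CDK4/6 KD (just short of 2-fold), 0.757 after PD0332991 and 0.417 between the controls had the directions of those of ITIH2. On the other side of ITIH2, KIN lies 1.44 kb away and had 223, 274, 414 and 371 reads. The fold changes of KIN were 0.847 in CDK4/6 KD (interval 0.734 to 0.977), 1.23 after PD0332991 (interval 1.03 to 1.48) and 1.58 between the controls. Each of these had the direction opposite to that of ITIH2. Of the neighbours of HPX, SMPD1 (fold change: 1.92) and ARFIP2 (fold change: 1.63) were higher in CDK4/6 KD, and both were also higher after PD0332991 (2.03, interval 1.59 to 2.63, and 1.5, interval 1.26 to 1.79), where HPX was at 1.03. Of the neighbours of AMBP, COL27A1 had a fold change of 2.20 with CDK4/6 KD and of 1.37 with PD0332991, RGS3 of 0.594 and 0.692, and KIF12 of 0.740 and 1.00. Of those of RBP4, CEP55, a gene of cell division, had 0.424 and 0.0951, and FRA10AC1 1.35 and 1.01. Of those of A2M, M6PR had 0.521 and 0.846, and KLRG1, at 5 to 20 reads, 0.763 and 2.84. Of those of AHSG, DNAJB11 had 1.19 and 0.676. DCK, a neighbour of GC with 99, 22, 19 and 26 reads, had 1.29 and 0.227.

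**Figure D5:**
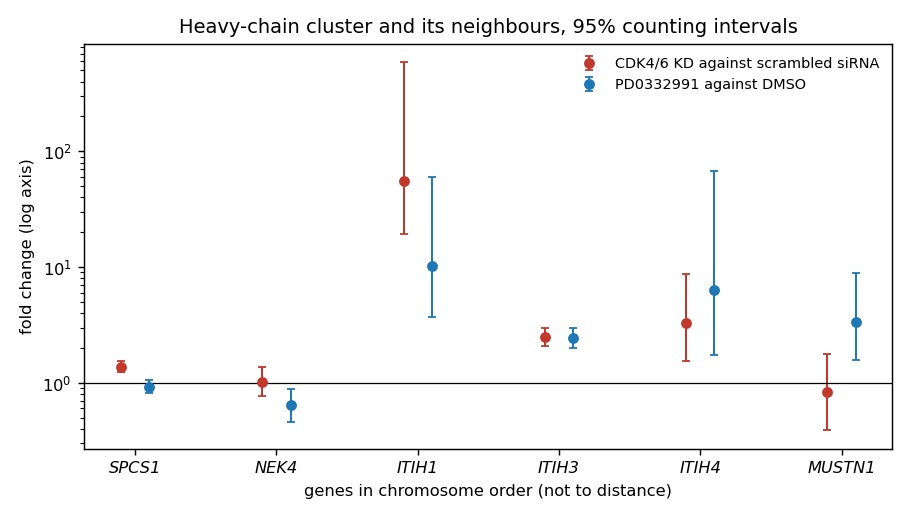
Fold change with 95% counting interval, on a log axis, of the heavy chain cluster on chromosome 3 and the genes beside it, in chromosome order and not to distance. ITIH1, ITIH3 and ITIH4 lie above 1 in both comparisons, while NEK4 has a fold change of 1.02 in CDK4/6 KD and 0.639 after PD0332991.

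Promoter sequence was examined because the 3 clustered heavy chain genes were higher in both treated libraries than in their own controls, while the interval of HPX after PD0332991 included 1. Windows from 250 bases before to 50 after each transcription start (RefSeq, GRCh38.p14) were given for 7 of the 10 genes, which leaves out ITIH2, GC and A2M. The 250 bases before the start are shown for 4 genes, with matches to the motifs listed after them in capitals.
ITIH3 (chr3:52794546-52794795, plus strand): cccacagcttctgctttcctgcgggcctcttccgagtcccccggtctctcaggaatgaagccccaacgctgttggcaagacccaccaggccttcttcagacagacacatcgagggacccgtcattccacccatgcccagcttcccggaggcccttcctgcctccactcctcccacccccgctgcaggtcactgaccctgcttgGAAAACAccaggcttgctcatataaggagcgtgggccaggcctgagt
ITIH4 (chr3:52830673-52830922, minus strand): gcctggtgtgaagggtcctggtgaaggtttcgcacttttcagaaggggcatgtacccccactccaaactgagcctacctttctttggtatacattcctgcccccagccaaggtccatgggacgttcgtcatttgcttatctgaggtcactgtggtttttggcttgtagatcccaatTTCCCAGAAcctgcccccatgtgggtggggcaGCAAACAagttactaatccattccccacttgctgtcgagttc
HPX (chr11:6440988-6441237, minus strand): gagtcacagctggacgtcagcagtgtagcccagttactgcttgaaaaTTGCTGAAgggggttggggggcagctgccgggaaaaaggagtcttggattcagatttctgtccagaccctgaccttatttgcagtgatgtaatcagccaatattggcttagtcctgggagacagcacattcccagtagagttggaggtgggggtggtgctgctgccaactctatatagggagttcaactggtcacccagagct
AHSG (chr3:186612810-186613059, plus strand): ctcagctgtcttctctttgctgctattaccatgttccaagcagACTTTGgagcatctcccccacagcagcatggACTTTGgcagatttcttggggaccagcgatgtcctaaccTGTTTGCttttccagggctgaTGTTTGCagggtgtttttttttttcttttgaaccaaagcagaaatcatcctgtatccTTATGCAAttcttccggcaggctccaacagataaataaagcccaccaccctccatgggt
The letters searched on both strands were TGTTTNC for FOXA factors, CAAAGT as an HNF4 half-site, GTTAAT as an HNF1 half-site, TTGCNNAA for C/EBP factors, TTTCNCGC for E2F factors, TTCNNNGAA for STAT factors and TATAAA as a TATA box, where N is any base. The FOXA letters were found in 4 of the 7 genes, beginning 47 bases before the start in ITIH3 and AMBP, 42 bases before it in ITIH4, and 137 and 116 bases before it in AHSG, and 18.0% of all 35116 promoter windows hold them. C/EBP letters were found in HPX, AHSG and RBP4 (10.5% of all windows), HNF4 letters in ITIH1, AHSG and RBP4 (11.9%), STAT letters in ITIH4 and RBP4 (7.66%) and TATA letters in RBP4 (11.5%). HNF1 letters (6.88%) and E2F letters (3.0%) were in 0 of the 7 genes. These are matches of letters in short windows and say nothing of binding. The percentages are of single windows, whereas a gene was counted if any of its windows held the letters. The 7 genes have 11 windows in all, so counts of genes and percentages of windows are not like measures. ITIH1 and RBP4 have 3 windows each. All 3 windows of ITIH1 lie wholly inside the gene as GENCODE 29 gives it, so its HNF4 letters were found within the gene. The sequence before the GENCODE 29 start of ITIH1 was not searched. The RefSeq starts of ITIH1, ITIH4 and HPX lie inside the gene at its full extent in GENCODE 29, so other starts upstream were not searched.

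The remaining genes of the pathway were read from lists of related function, and all counts are of genes at least 2-fold apart. For CDK4/6 KD against scrambled siRNA, 9.19% of all genes past the filter went up by that much and 7.62% went down. For PD0332991 against DMSO the shares were 7.49% and 7.07%. Because the lists were drawn up after earlier results were known, nothing is read from their counts beside these shares. Hyaluronan synthases, hyaluronidases, hyaluronan receptors and ITIH relatives gave 6 genes past the filter in CDK4/6 KD, of which 0 were higher and 2 lower, with a median log2 fold change of -0.26. The hyaluronidase HYAL1 (fold change: 0.238) went from 1059 reads in scrambled siRNA to 266 in CDK4/6 KD, but was at 768 in DMSO and 1231 in PD0332991. HMMR, a hyaluronan receptor gene that dividing cells express, was lower in both treated libraries, with 792 reads in DMSO, 133 with PD0332991, 779 with scrambled siRNA and 327 with CDK4/6 KD. After PD0332991, 2 genes of this list were higher (HAS2 and CD44, each from under 10 reads in DMSO) and 1 lower (HMMR) of 8. TNFAIP6, whose product moves heavy chains to hyaluronan, had 0 reads in scrambled siRNA and CDK4/6 KD.

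Of 15 enzymes that build the chondroitin sulfate chain and passed the filter, 1 was higher and 0 lower in CDK4/6 KD (median log2 fold change 0.011), and 0 were higher and 1 lower after PD0332991 (median 0.16). The former was CHPF, a chondroitin polymerizing factor, with 1083 reads in DMSO, 1823 with PD0332991, 585 with scrambled siRNA and 1856 with CDK4/6 KD (fold change in CDK4/6 KD: 3.0, and 1.38 against DMSO). The latter was the sulfotransferase CHST15 (fold change: 0.420). Among 5 proprotein convertases, which cut secreted precursors, 2 were higher (FURIN and PCSK6) and 1 lower (PCSK5) in CDK4/6 KD, and 0 of 5 were 2-fold apart after PD0332991. FURIN had 346 reads in DMSO, 631 with PD0332991, 126 with scrambled siRNA and 355 with CDK4/6 KD, so its fold change of 2.66 in CDK4/6 KD was measured against the low control, and against DMSO it was 0.828 (scrambled siRNA over DMSO: 0.312).

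Of 12 other plasma carriers of the liver past the filter, 4 were higher and 0 lower in CDK4/6 KD, with a median log2 fold change of 0.70. These were HP (fold change: 3.15), APOH (a phospholipid-binding plasma protein, fold change: 2.21), SERPINA7 (thyroxine-binding globulin, fold change: 2.14) and IGFALS, with 1 read with scrambled siRNA and 25 with CDK4/6 KD. Against DMSO, 2 of 12 were higher and 1 lower in CDK4/6 KD, with a median of 0.28 and fold changes of 0.996 for HP, 1.73 for APOH and 1.55 for SERPINA7. After PD0332991, 1 of 11 was higher (SHBG, the sex steroid carrier, fold change: 4.38) and the median was 0.17. The selenium carrier selenoprotein P, listed under its older symbol SEPP1, had 4813 reads in DMSO, 5200 with PD0332991, 2334 with scrambled siRNA and 3034 with CDK4/6 KD, lowest with scrambled siRNA as RBP4 was. Among 8 relatives of the carriers, 2 were higher in CDK4/6 KD (ALB, fold change: 2.01, and KNG1, the kininogen gene). KNG1 had 14 reads in DMSO, 15 with PD0332991, 0 with scrambled siRNA and 26 with CDK4/6 KD, so that scrambled siRNA was the low library, and CDK4/6 KD over DMSO was 1.48 with an interval of 0.755 to 3.11. For ALB, CDK4/6 KD over DMSO was 1.56. FETUB, the neighbour and relative of AHSG, had 5, 23, 3 and 0 reads in DMSO, PD0332991, scrambled siRNA and CDK4/6 KD.

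Acute phase proteins, to which HPX and ITIH4 belong by their regulation in the liver, gave 9 genes past the filter in CDK4/6 KD. Of these, 5 were higher and 0 lower than with scrambled siRNA, with a median log2 fold change of 1.35. This count is given as a description, because the list was drawn up with earlier results known. The 5 genes were the fibrinogen chains FGA (fold change: 3.38), FGG (fold change: 3.13) and FGB (fold change: 2.62), HPR (fold change: 3.28) and complement factor CFB (fold change: 2.54). Reads of HPR cannot be told apart with certainty from those of HP, which was counted among the carriers, so HPR and HP are not separate counts. With DMSO as the control of CDK4/6 KD, 4 of 10 were higher, 1 was lower and the median was 0.31, with fold changes of 3.16 for FGA, 2.01 for FGG, 2.05 for FGB, 2.01 for CFB and 1.09 for HPR. After PD0332991, 0 of 10 were 2-fold apart and the median was 0.47, and between the controls 0 were higher and 3 lower, with a median of -0.50. SERPINA3 (antichymotrypsin) was 1 of those 3 (scrambled siRNA over DMSO: 0.460). HAMP, which encodes the iron hormone hepcidin, was at 655 reads in DMSO and 394 in PD0332991 but 0 with scrambled siRNA and 1 with CDK4/6 KD, so that it separated the transfected cells from the others and not the treated cells from their controls. CRP, SAA1, SAA2 and LBP had at most 2 reads in scrambled siRNA and CDK4/6 KD.

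Of 17 receptors and enzymes that take up or handle the cargo of the carriers, 3 were higher and 0 lower in CDK4/6 KD, with a median log2 fold change of 0.14. LRP1, a receptor for A2M-protease and hemopexin-heme complexes, had 903 reads in DMSO, 1094 with PD0332991, 451 with scrambled siRNA and 979 with CDK4/6 KD (fold change in CDK4/6 KD: 2.05), and was thus low in scrambled siRNA, with a fold change in CDK4/6 KD of 0.875 against DMSO. AMN, a partner of the receptor cubilin, was higher in CDK4/6 KD (fold change: 2.88) and in PD0332991 (fold change: 2.30). After PD0332991, 1 of 16 was higher and 1 lower, the latter being CYP24A1, which degrades vitamin D (fold change: 0.365). Among 15 liver-enriched transcription factors, 4 were higher in CDK4/6 KD (NR1H4, fold change: 4.01, ONECUT1, fold change: 3.40, FOXA1, fold change: 2.18, and CEBPB, fold change: 2.04) and 1 lower (NR5A2, fold change: 0.273), while 0 of 15 were 2-fold apart after PD0332991. None of these calls held against DMSO, where 0 of the 15 factors were higher and 2 lower in CDK4/6 KD, with a median of -0.22, and where the fold change was 1.06 for NR1H4, 1.13 for ONECUT1, 1.05 for FOXA1, 1.54 for CEBPB and 0.810 for NR5A2. NR1H4, the bile acid receptor, had 257, 277, 79 and 337 reads in DMSO, PD0332991, scrambled siRNA and CDK4/6 KD. Between the controls, 5 of the 15 factors were lower and 1 higher in scrambled siRNA, among them CEBPA (scrambled siRNA over DMSO: 0.244).

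The genes closest in pattern to ITIH1 and to HPX were ranked by the Euclidean distance of their log2 levels, centred on the gene mean, over the 4 libraries, among 9985 genes with at least 100 reads in some library. MEF2B, which encodes a MADS-box transcription factor, was nearest to ITIH1, with 24 reads in DMSO, 66 with PD0332991, 9 with scrambled siRNA and 135 with CDK4/6 KD (distance 2.22 log2 units). Its readthrough gene MEF2BNB-MEF2B, which shares these reads, was next, and SNORA12, the protease gene TMPRSS3 and the vitamin C transporter gene SLC23A1 followed. HPX held place 22 and ITIH3 place 68 in this order. VLDLR, a lipoprotein receptor gene, was nearest to HPX, with 13, 23, 15 and 152 reads in the same order of libraries (distance 0.560), ahead of TTPA, the liver's alpha-tocopherol transfer protein gene, with 19, 19, 22 and 108. CYB561, SLC17A2 and TFF3 followed. None of the 9985 genes matched ITIH1 as closely as VLDLR matched HPX. However, distances to ITIH1 rest on its 3 reads in DMSO and 2 with scrambled siRNA, and they grow with the size of its fold changes. The distances to ITIH1 and to HPX are therefore not on an equal footing.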

How the data were processed

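The authors sequenced 1 QuantSeq 3′ mRNA library per condition and deposited raw read counts per gene symbol, without normalization and with libraries kept apart. Their processing notes name Bowtie2, edgeR and hg19, while the counter, the annotation and the strand setting are not given in the sources used here. Among 25737 entries, 286 symbols were repeated and their counts added up. TMM factors of 0.957 to 1.03 (edgeR 4.0.16 in R 4.3.3) scaled the library sizes. Fold changes held a pseudocount of 0.5 reads, in proportion to library size, genes needed at least 10 reads in 1 of the libraries compared, and 3 reads were taken as the floor. Where a control had 1 to 3 reads, the plain ratio was given. For intervals, the split of the reads between both libraries got an exact 95% Clopper-Pearson interval (scipy 1.17.1). No test was possible with 1 library per condition. The procedure was tested on simulated reads that held counting error alone, so that test says nothing of the spread between libraries. The genes and lists were chosen with earlier results of these data known. The rule for naming took all 10 genes, the nearest genes in pattern, the 2 coding neighbours on each side, list genes with the whole interval past 2-fold, CDK4 and CDK6. Neighbours at low counts or absent from the tables, and some list and marker genes past 2-fold between the controls or after PD0332991, were left out of the text. HAMP, COL1A1, KRT14, SEPP1 and the other genes shown for context were named after their values were seen. As alternatives, results were recomputed with DESeq2 1.42.0 size factors, total counts, quantile normalization (limma 3.58.1), a pseudocount of 5 reads, no filter or 50 reads, thresholds of 1.5-fold or the whole interval, repeated symbols by their most counted entry, and the control of the other arm. No column of per-sample values was left unused. A result on 1 of the list genes is not reported here.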

Additional observations from a re-analysis of the deposited data

Results flagged for a closer look

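ITIH2 moved in opposite directions in the 2 treatments: it was higher in CDK4/6 KD than in its control (fold change: 1.76) and lower in PD0332991 than in DMSO (fold change: 0.853). The difference between the treatments was not tested, since each condition had 1 library. Both directions depended on the control: with the controls exchanged the fold changes were 0.984 in CDK4/6 KD and 1.52 in PD0332991.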

How the results depend on the processing

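No paired analysis was possible because each condition had 1 library, and for the same reason no replicate could be left out. Of the fold changes of single genes under the alternatives, 160 stayed within the counting interval, 28 moved out of it and 2 changed direction, both for ITIH2 with the control of the other arm (0.984 in CDK4/6 KD against DMSO and 1.52 in PD0332991 against scrambled siRNA). The filters leave a fold change as it is, and the choice among repeated entries reaches these genes only through the library size. Those alternatives are counted among the 160, although they could hardly move a gene. The fold change of ITIH1 in CDK4/6 KD was 55.8 with the pseudocount of 0.5 reads, where the plain ratio was 70.4. Under the alternatives this fold change ran from 20.0 to 59.5, lowest with a pseudocount of 5 reads. The median log2 fold change in CDK4/6 KD was 0.99 with total counts, 0.98 with quantile normalization and 0.58 against DMSO. After PD0332991 it was 0.47 with a filter of 50 reads and 0.81 against scrambled siRNA. The 3 genes at least 2-fold higher after PD0332991 became 1 with that filter (ITIH3). They also became 1, but a different gene (ITIH1), when the interval as a whole was required to be past 2-fold. Between the controls, 1 gene was at least 2-fold apart with no filter, which put the median at -0.042, and 2 at 1.5-fold. Of the 114 list genes, 26 were at least 2-fold apart in CDK4/6 KD, 40 with no filter and 49 at 1.5-fold. After PD0332991 the number was 8, with 21 for no filter, 5 for 50 reads, 23 at 1.5-fold, 3 by the whole interval and 29 against scrambled siRNA. Between the controls it was 23, with 41 at 1.5-fold and 12 by the whole interval. The cause of these shifts was not tested, beyond the fewer or more genes that each filter and threshold admits. Depth limits ITIH1, ITIH4 and GC, which had 0 to 3 reads in at least 1 library.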
